A study of Mus musculus with 8 samples.

Results

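Semaphorins, plexins and neuropilins are the ligands and receptors of one axon guidance system, and 31 of the 24883 gene rows in the deposited table belong to these families by their symbols. They comprise 20 semaphorins, 9 plexins and 2 neuropilins. RNA had been sequenced from the visual cortex of adult C57BL/6J mice, in 8 libraries. The 4 control libraries came from cortex injected with a locked nucleic acid (LNA) oligonucleotide of scrambled sequence, and the 4 treated libraries from cortex injected with one complementary to miR-29a, a microRNA. All samples shared strain, tissue, injection on postnatal day 122 and harvest on postnatal day 129, and no genetic modification is named. Injected tissue holds every cell type of the cortex, so in these bulk samples fewer cells of a type and less RNA per cell cannot be told apart. The labels do not tie each sample to an animal of its own, so a p-value here weighs a difference against sample-to-sample spread, part of which may be technical.

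Semaphorins are secreted or membrane-bound proteins that share a sema domain and steer growing axons, dendrites and migrating cells, mostly by repulsion. Plexins are their main receptors and act on small GTPases and the cytoskeleton. Neuropilins are co-receptors that bind the secreted class 3 semaphorins and pass the signal on through type A plexins, and they also bind vascular endothelial growth factor. In the adult cortex the secreted ligand Sema3a is known as a component of the perineuronal nets around parvalbumin interneurons, and membrane semaphorins are known regulators of synapse number.

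Levels are given as FPKM, fragments scaled by transcript length and by mapped fragments, so levels of different genes can be compared per length. Each library listed 12538 to 12769 rows at 1 FPKM or more, and the spacing of low values put the depth at 0.983 to 1.17 of that of scrambled replicate 1. The first principal component held 19.9% of the variance. Scrambled replicates 1 to 4 lay at -2.2, -34, 0.889 and -10.6 on it, and anti-miR-29a replicates 1 to 4 at 9.41, 15.7, 8.59 and 12.2. The groups did not overlap on this component, and scrambled replicate 2 lay furthest from the other libraries. On the second component scrambled replicate 3 lay at -34.1 against -4.63 to 14 for the others. All 7 excitatory neuron markers and all 7 interneuron markers were above the filter on low values. The groups overlapped in the sum of each list. The excitatory sum was 1427 to 1539 FPKM in anti-miR-29a and 1488 to 1553 in scrambled libraries. Most of it was Camk2a (713 to 836 FPKM) and Slc17a7 (577 to 633 FPKM), so it says little about the scarcer markers. Every anti-miR-29a library lay below every scrambled one for Neurod6 (log2 difference -0.25, limma, unadjusted p = 0.00671) and Gad1 (-0.073, unadjusted p = 0.144). For Pvalb every one lay above (0.13, unadjusted p = 0.0403). The groups overlapped in the other neuron markers, and none passed after adjustment. Over all tested rows 4.02% were higher and 2.29% lower without overlap, and 7.54% were higher and 3.18% lower at an unadjusted p under 0.05 (limma). The rows of the precursors Mir29a, Mir29b-1, Mir29b-2 and Mir29c held 0 in each of the 8 libraries, so this table cannot show how far miR-29a was blocked.

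Of the 31 members, 30 had a mean of at least 0.5 FPKM and were tested. Sema3d, a secreted ligand, was low, with means of 0.383 ± 0.146 FPKM for scrambled and 0.418 ± 0.193 for anti-miR-29a samples (SD, n = 4 per group). The nearest members above that limit were Sema3b and Sema3g with means of 0.577 and 0.640 FPKM. The highest level was that of Sema7a, a membrane-anchored semaphorin that signals through Plxnc1 and integrins, with a mean of 40.4 FPKM, followed by Sema6b at 31.0, Plxnd1 at 20.3, Plxna2 at 13.7 and Sema4a at 13.5 FPKM. The secreted ligands were scarcer: among the 6 tested ones the highest mean was the 3.70 FPKM of Sema3e. Per-library levels are shown for every member. The median standard error of the log2 difference was 0.124 for the tested members, about the 0.123 of all tested rows.

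**Figure D1:**
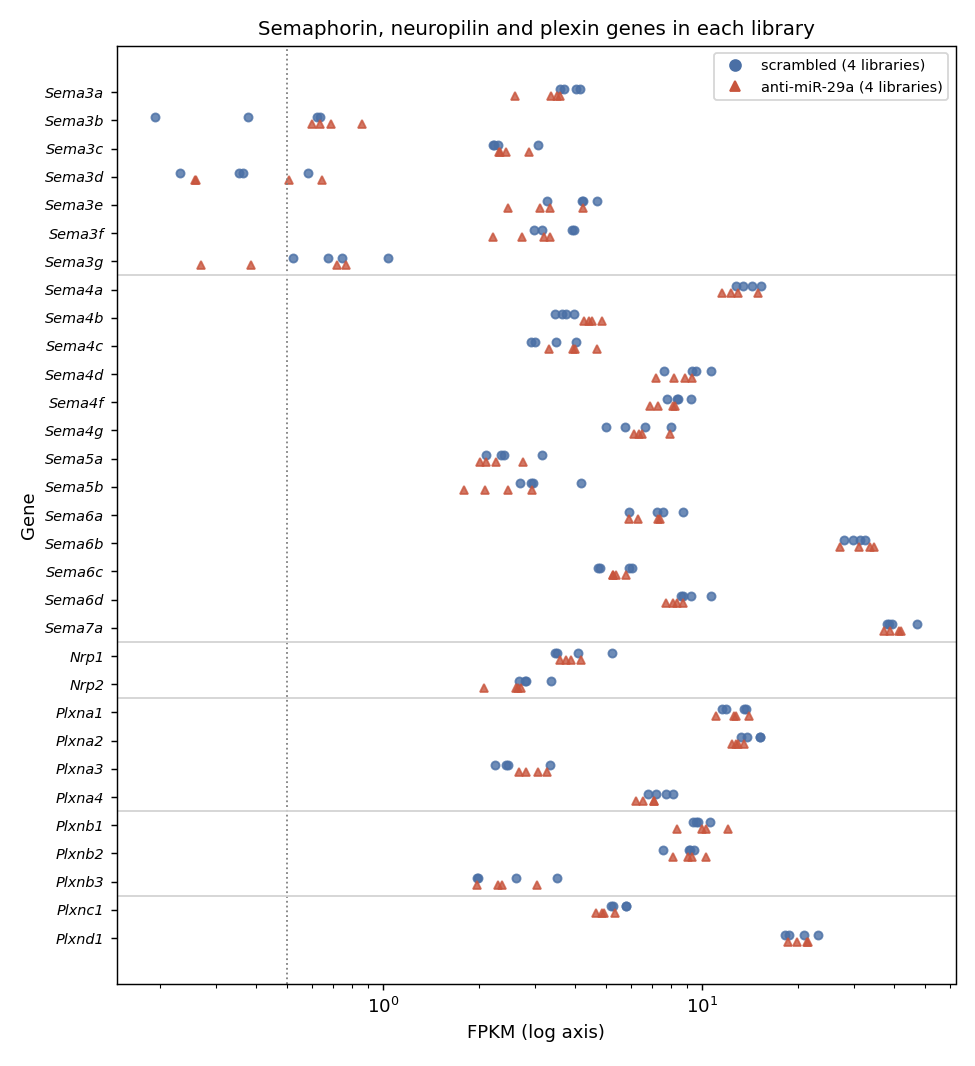
Level of each of the 31 genes in FPKM (log axis) in the 4 scrambled libraries (circles) and the 4 anti-miR-29a libraries (triangles), with horizontal lines between the family classes and a dotted line at 0.5 FPKM. Sema7a and Sema6b are the highest rows, Sema3b, Sema3d and Sema3g lie near the dotted line, and Sema4b is the one row whose symbols do not overlap.

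Setting the anti-miR-29a against the scrambled samples asks which transcripts differ when miR-29a is blocked. None of the 30 tested members passed the threshold of 0.05 after adjustment over all 13912 tested rows, of which 2 passed (0.0144%), and the smallest adjusted p of a member was 0.347 (limma with Benjamini-Hochberg adjustment). At an unadjusted p under 0.05, 1 member was higher, Sema4b, against 7.54% of all tested rows, and 1 was lower, Sema5b, against 3.18%. Together these 2 are 6.67% of the members, while 10.7% of all rows were past that limit. The groups did not overlap in 1 member with higher anti-miR-29a values, against 4.02% of all rows, and in 0 members with lower ones, against 2.29%. Neither share of the members stands above the background.

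The signs leaned to lower values in the anti-miR-29a libraries. The log2 difference was negative in 19 of 30 members (63.3%) and in 43.4% of all tested rows, and its median was -0.089 for the members and 0.026 for all rows. With quantile normalization the figures were 21 of 30 members and 52.1% of all rows, with medians of -0.12 and -0.0085, so the share of all rows with a negative sign depended on how libraries were scaled. With a trend on transcript length and GC content removed, 18 of 30 members and 52.2% of all rows had a negative difference, a smaller gap than as deposited. Among rows with an unadjusted p under 0.05, 1049 were higher and 443 lower as deposited, 713 and 797 with quantile normalization, and 748 and 731 with median centring. The libraries that stood apart did not set the sign of the members' median: leaving out scrambled replicate 2 gave -0.11, and leaving out scrambled replicate 3 gave -0.092. Differences ranged from -0.46 for Sema3g to 0.60 for Sema3b, which are the least abundant tested members, and 11 members lay within 0.1 log2 units of 0. The median half-width of the 95% interval was 0.28 log2 units, and for 19 members the whole interval lay within 0.5 log2 units of 0. For those 19 members a difference beyond 0.5 lies outside the interval.

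**Figure D2:**
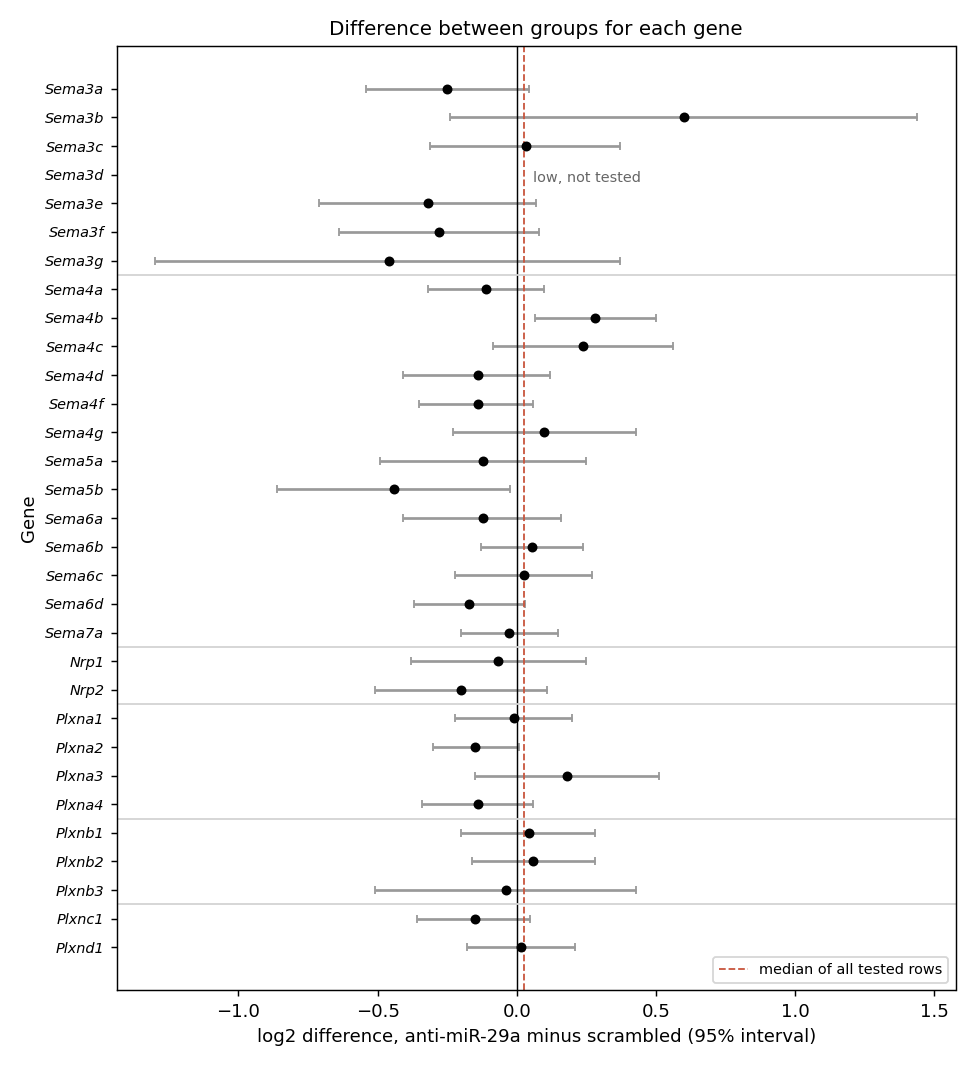
Log2 difference (anti-miR-29a minus scrambled) of each tested gene with its 95% interval from limma, by family class, with a dashed line at the median of all tested rows (0.026). The intervals of Sema4b (0.067 to 0.50) and Sema5b (-0.86 to -0.023) are the only ones that leave out 0 without adjustment, and those of Sema3b and Sema3g are the widest.

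Secreted class 3 semaphorins were lower in sum. Their 7 rows together read 16.0, 15.0, 14.8 and 16.1 FPKM in scrambled replicates 1 to 4 and 13.7, 12.4, 14.7 and 13.6 FPKM in anti-miR-29a replicates 1 to 4. The groups did not overlap, by a narrow margin between scrambled replicate 3 and anti-miR-29a replicate 3, and the log2 ratio was -0.19, with values from -0.23 to -0.15 when any 1 library was left out. The groups overlapped in the sum of every other class and of all members. Class sums are a description, with no test, and were not recomputed with the length and GC trend removed. In that fit the differences of Sema3a and Sema3e were nearer 0 (-0.17 and -0.24), and that of Sema3f was further from it (-0.34). Of the 6 tested ligands 4 had a negative difference, with a median of -0.26, and none passed the threshold.

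Sema3a, the repulsive ligand of Nrp1, is the member whose longest 3' UTR holds a 7-base match to the miR-29 seed. Its gene lies on the plus strand of chromosome 5 at 13125414 to 13602565 (mm10). The complement of bases 2 to 8 of miR-29a, TGGTGCT, was searched on the sense strand. Sema3a was 1 of the 31 members with such a match (3.23%), while 15.8% of 13158 searched rows had one. Its 3' UTR of 2962 nt holds a single match at chr5:13601086-13601092, 1473 nt before the annotated end. The base after these 7 is an A, which makes the site an 8mer, and 3.36% of all searched rows hold an 8mer, close to the share of the members. Counting any annotated 3' UTR, Sema6a also had a 7-base match, which made 6.45% of the members against 16.7% of the searched rows. The 3 mature miR-29 sequences share one seed and are shown with it in capitals, followed by the Sema3a site with its 7-base match in capitals, read on the plus strand at chr5:13601075-13601103 from the GENCODE M21 transcript. The miRNA sequences are those of RefSeq for GRCm38.p6, all 5′ to 3′.
miR-29a-3p: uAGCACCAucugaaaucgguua
miR-29b-3p: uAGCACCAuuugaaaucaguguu
miR-29c-3p: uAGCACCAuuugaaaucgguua
Sema3a 3' UTR site: gaccagttcatTGGTGCTacaggcctcac

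The levels of Sema3a did not lie higher in the anti-miR-29a libraries. Sema3a read 4.16, 3.58, 4.03 and 3.71 FPKM in scrambled replicates 1 to 4 and 3.37, 2.59, 3.58 and 3.52 FPKM in anti-miR-29a replicates 1 to 4. The lowest scrambled and the highest anti-miR-29a library met at 3.58 FPKM, so the groups just overlapped, and anti-miR-29a replicate 2 was the lowest of all. The log2 difference was -0.25 with a standard error of 0.130 and a 95% interval of -0.54 to 0.045 (limma, adjusted p = 0.526; exact permutation p = 0.0571), and without anti-miR-29a replicate 2 the difference of Sema3a was -0.14. The seed match is a description of the letters of this UTR and was not tested for function.

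Sema3e, the ligand of Plxnd1 in vessels and thalamocortical circuits, and Sema3f, the Nrp2 ligand that restrains dendritic spines, also read lower without passing. Sema3e, on chromosome 5 at 14025276 to 14256689, read 4.20, 4.24, 3.26 and 4.69 FPKM for scrambled replicates 1 to 4, then 3.12, 2.46, 4.25 and 3.35 FPKM for anti-miR-29a replicates 1 to 4. Its anti-miR-29a replicates 3 and 4 lay among the scrambled values, and the log2 difference was -0.32 ± 0.175 (standard error; limma, adjusted p = 0.539; exact permutation p = 0.200). Sema3f, on the minus strand of chromosome 9 at 107681500 to 107710475, read 3.15, 3.91, 3.96 and 2.98 FPKM for scrambled replicates 1 to 4, then 3.35, 2.73, 3.20 and 2.21 FPKM for anti-miR-29a replicates 1 to 4. Both groups of Sema3f spanned the range from 2.98 to 3.35 FPKM, and the log2 difference was -0.28 ± 0.163 (limma, adjusted p = 0.568; exact permutation p = 0.171). Single libraries carried much of both values: Sema3e was -0.19 without anti-miR-29a replicate 2, and Sema3f was -0.17 without anti-miR-29a replicate 4.

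Sema3b, a secreted ligand on chromosome 9 at 107597674 to 107609229, read 0.621, 0.193, 0.378 and 0.636 FPKM for scrambled replicates 1 to 4, then 0.601, 0.862, 0.690 and 0.635 FPKM for anti-miR-29a replicates 1 to 4. Scrambled replicates 2 and 3 were the low libraries, and the other scrambled values lay among those of the anti-miR-29a group. The log2 difference of 0.60 had an interval from -0.24 to 1.44 (limma, adjusted p = 0.608; exact permutation p = 0.143), and it was 0.23 with a pseudocount of 1 FPKM and 0.32 without scrambled replicate 2. Sema3g, a ligand known in vessel walls, differed by -0.46 (-1.30 to 0.37), by -0.19 with a pseudocount of 1 FPKM and by -0.23 without anti-miR-29a replicate 1. Sema3c differed by 0.032 (-0.31 to 0.37).

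Membrane-bound semaphorins of classes 4 to 7 hold the members of smallest p in both directions. Sema4b, a transmembrane semaphorin with a known role in synapse formation, lies on chromosome 7 at 80186841 to 80226527. It read 3.74, 3.96, 3.47 and 3.64 FPKM for scrambled replicates 1 to 4, then 4.86, 4.53, 4.27 and 4.44 FPKM for anti-miR-29a replicates 1 to 4. Every anti-miR-29a library lay above every scrambled one. The group means were 3.70 ± 0.204 and 4.53 ± 0.246 FPKM (SD, n = 4 per group), a log2 difference of 0.28 with a standard error of 0.0974 that missed the threshold (limma, unadjusted p = 0.0155, adjusted p = 0.347). The exact permutation test gave p = 0.0286, which is its lower limit with 70 relabellings. Over the alternatives the difference stayed between 0.23 and 0.32 with adjusted p from 0.287 to 0.715. The longest 3' UTR of Sema4b holds 0 matches to the miR-29 seed.

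Sema5b, a transmembrane semaphorin with thrombospondin repeats that inhibits synapse and axon growth, lies on chromosome 16 at 35541145 to 35664732. It read 4.17, 2.91, 2.69 and 2.96 FPKM for scrambled replicates 1 to 4, then 2.93, 1.79, 2.46 and 2.09 FPKM for anti-miR-29a replicates 1 to 4. Scrambled replicate 1 stood alone at the top, and anti-miR-29a replicate 1 lay level with the other scrambled libraries, so the groups overlapped. The log2 difference was -0.44 with a standard error of 0.189 (limma, unadjusted p = 0.0408, adjusted p = 0.442; exact permutation p = 0.0857). Without scrambled replicate 1 the difference of Sema5b was -0.31 (unadjusted p = 0.126), and without anti-miR-29a replicate 2 it was -0.33 (unadjusted p = 0.113). Its unadjusted p was also above 0.05 without scrambled replicate 2 (0.0511), scrambled replicate 4 (0.0572) or anti-miR-29a replicate 4 (0.0889), and with no filter on low values (0.0523). Its relative Sema5a, also at work in synapse development, differed by -0.12 (-0.49 to 0.25), and by -0.0058 without scrambled replicate 1 and -0.022 with the length and GC trend removed.

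**Figure D3:**
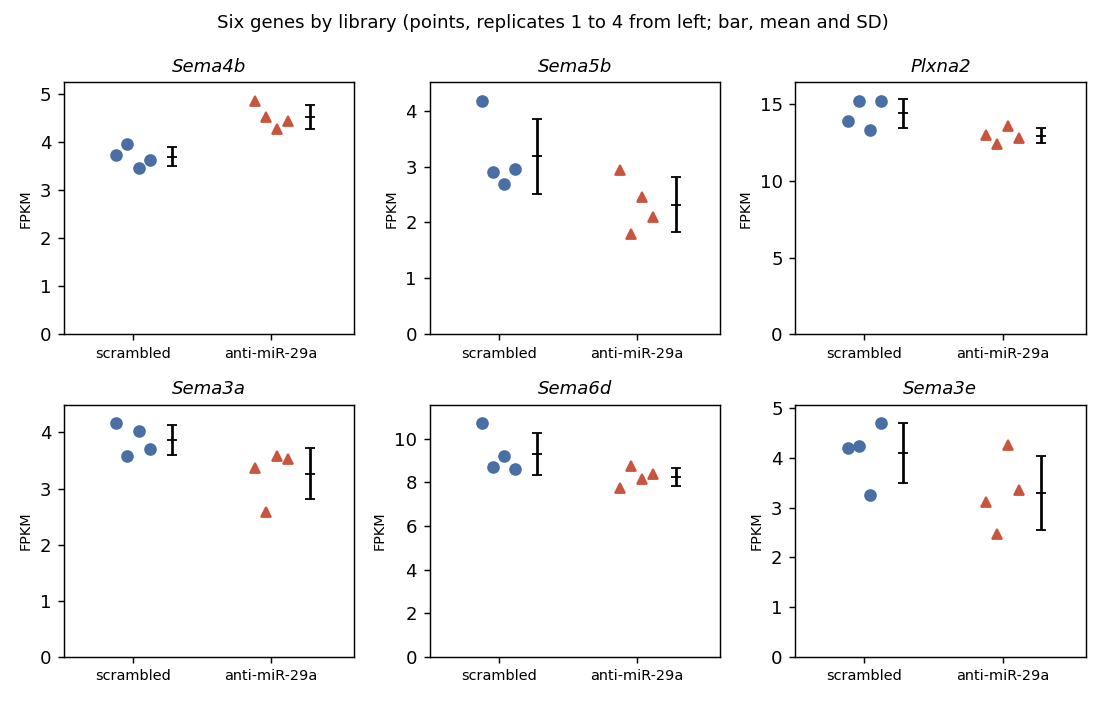
FPKM in each library (scrambled circles, anti-miR-29a triangles, replicates 1 to 4 from left to right, linear axes from 0) of the 6 genes with the smallest unadjusted p, with the mean and SD of each group as a bar. Sema4b separates the groups (3.47 to 3.96 against 4.27 to 4.86 FPKM), and the other 5 overlap.

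Sema6d and Sema4c were also among the 10 members of smallest p. Sema6d, a ligand and receptor of type A plexins on chromosome 2 at 124089969 to 124667770, read 10.7, 8.70, 9.22 and 8.62 FPKM for scrambled replicates 1 to 4, then 7.74, 8.74, 8.14 and 8.38 FPKM for anti-miR-29a replicates 1 to 4. Scrambled replicate 1 was again the highest, and anti-miR-29a replicate 2 lay above scrambled replicates 2 and 4 (log2 difference -0.17 ± 0.0892; limma, adjusted p = 0.527; exact permutation p = 0.0857). Without scrambled replicate 1 the Sema6d difference was -0.10. Sema4c, a Plxnb2 ligand on the minus strand of chromosome 1 at 36548639 to 36558349, read 3.50, 2.92, 3.00 and 4.04 FPKM for scrambled replicates 1 to 4, then 4.00, 3.95, 4.68 and 3.31 FPKM for anti-miR-29a replicates 1 to 4. Its groups overlapped widely (log2 difference 0.24 ± 0.146; limma, adjusted p = 0.594; exact permutation p = 0.200), and 7.27% of its exonic bases are shared with D430040D24Rik on the opposite strand, from which the library kit does not separate it.

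Sema7a on chromosome 9, the most abundant member, read 39.4, 47.4, 38.1 and 38.6 FPKM for scrambled replicates 1 to 4, then 37.3, 42.1, 39.0 and 41.6 FPKM for anti-miR-29a replicates 1 to 4. Scrambled replicate 2 alone was high, and the other 7 libraries lay within 37.3 to 42.1 FPKM. The log2 difference was -0.027 with a 95% interval of -0.20 to 0.15 (limma, adjusted p = 0.926; exact permutation p = 0.800), and the sign of the Sema7a difference changed without scrambled replicate 2 (0.047) or without anti-miR-29a replicate 1 (0.0067). Among the rest of these classes, Sema4a, Sema4d, Sema4f and Sema6a differed by -0.11, -0.14, -0.14 and -0.12, and Sema4g, Sema6b and Sema6c by 0.099, 0.054 and 0.025, none with an unadjusted p under 0.05. Without scrambled replicate 1 Sema4d was -0.074 and Sema6a -0.036, and without anti-miR-29a replicate 2 Sema4a was -0.059. The 13 rows of classes 4 to 7 summed to 144 ± 5.36 FPKM for scrambled and 141 ± 3.38 FPKM for anti-miR-29a samples.

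The neuropilins, the shared co-receptors, both read slightly lower without passing. Nrp1, on chromosome 8 at 128358604 to 128503363, read 5.24, 3.47, 4.10 and 3.51 FPKM for scrambled replicates 1 to 4, then 3.88, 3.74, 3.59 and 4.17 FPKM for anti-miR-29a replicates 1 to 4. Scrambled replicate 1 was the highest library, and without it the log2 difference of Nrp1 turned from -0.066 to 0.058 (limma, adjusted p = 0.895 with all libraries; exact permutation p = 0.800). Nrp2, on chromosome 1 at 62703285 to 62818695, read 2.81, 2.78, 2.67 and 3.36 FPKM for scrambled replicates 1 to 4, then 2.08, 2.61, 2.71 and 2.66 FPKM for anti-miR-29a replicates 1 to 4. Anti-miR-29a replicate 3 lay above the lowest scrambled library, and the log2 difference was -0.20 ± 0.138 (limma, adjusted p = 0.641; exact permutation p = 0.0571). It was -0.12 without anti-miR-29a replicate 1 and -0.13 without scrambled replicate 4.

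Type A plexins, which carry class 3 and class 6 signals, were expressed at 2.79 to 13.7 FPKM. Plxna2, on chromosome 1 at 194618218 to 194816869, read 13.9, 15.2, 13.3 and 15.2 FPKM for scrambled replicates 1 to 4, then 13.0, 12.4, 13.6 and 12.8 FPKM for anti-miR-29a replicates 1 to 4. Only the anti-miR-29a replicate 3 of Plxna2 lay above the lowest scrambled library, and the means were 14.4 ± 0.945 and 13.0 ± 0.467 FPKM, a log2 difference of -0.15 with a standard error of 0.0698 (limma, unadjusted p = 0.0590, adjusted p = 0.482; exact permutation p = 0.0571). The unadjusted p of Plxna2 (limma) was 0.0314 with quantile normalization, 0.0364 with median centring, 0.0381 with no filter and 0.0417 with sample weights. Without scrambled replicate 3 it was 0.0302. In the other alternatives it was above 0.05, up to 0.367, and the adjusted p of Plxna2 was at least 0.377 in all of them. The members are long genes, with a median longest transcript of 5710 nt against 3387 nt for all tested rows. After a trend across rows on length and GC content was taken out, the difference of Plxna2 was -0.083 and that of Plxna4 -0.089, and the median of the members was -0.073 against -0.0074 for all rows.

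Plxna4, the plexin with the longest transcript here and a partner of Nrp1 in Sema3a signalling, lies on the minus strand of chromosome 6 at 32144268 to 32588192. It read 7.19, 7.74, 6.76 and 8.14 FPKM for scrambled replicates 1 to 4, then 6.55, 7.10, 7.10 and 6.21 FPKM for anti-miR-29a replicates 1 to 4. Its anti-miR-29a replicates 2 and 3 lay above the lowest scrambled one (log2 difference -0.14 ± 0.0908; limma, adjusted p = 0.612; exact permutation p = 0.114). Plxna1 differed by -0.011 (-0.22 to 0.20) and Plxna3 by 0.18 (-0.15 to 0.51), and 10.7% of the exonic bases of Plxna1 are shared with the antisense row Gm26811.

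Plxnc1, the receptor of Sema7a, lies on the minus strand of chromosome 10 at 94790866 to 94944835. It read 5.80, 5.18, 5.28 and 5.80 FPKM for scrambled replicates 1 to 4, then 4.95, 4.85, 4.67 and 5.33 FPKM for anti-miR-29a replicates 1 to 4. Anti-miR-29a replicate 4 lay among the scrambled values, and the log2 difference was -0.15 ± 0.0908 (limma, adjusted p = 0.582; exact permutation p = 0.0857). Type B plexins, the receptors of class 4 semaphorins, showed little: Plxnb1, Plxnb2 and Plxnb3 differed by 0.043, 0.059 and -0.040. Plxnd1, which serves Sema3e and Sema4a and is known in endothelium and in neurons, spanned 18.2 to 23.2 FPKM in the scrambled group and 18.6 to 21.5 FPKM in the anti-miR-29a group and differed by 0.015 (-0.18 to 0.21).

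The members' highest values fell unevenly over the libraries. Of the 30 tested members 23 had their highest value in a scrambled library (76.7%), against 43.5% of all tested rows. Scrambled replicate 1 alone held the highest value of 9 members (30.0%), against 8.66% of all rows: Sema3a, Sema3g, Sema4d, Sema5a, Sema5b, Sema6a, Sema6d, Nrp1 and Plxnb3. Sema4d, Sema5a, Sema6a and Plxnb3 are known in the oligodendrocyte lineage. The 7 oligodendrocyte markers summed to 1691 FPKM in scrambled replicate 1, to 825 to 1190.1 FPKM in the other scrambled libraries and to 925 to 1228 FPKM in the anti-miR-29a libraries, with none at 0 in any library. All 7 of these markers had a negative difference, with a median of -0.12, and none passed. Scrambled replicate 1 also had the highest scrambled sum of astrocyte (1001 FPKM), microglia and macrophage (112), endothelial (96.1) and mural cell (34.3) markers. For oligodendrocyte precursor markers it read 46.9 FPKM, just above the 46.8 of scrambled replicate 3. It was not the highest for the neuron or fibroblast markers. The part of these cell types in the members' values was not tested. Without scrambled replicate 1 the median of the members was -0.039, and 19 of 30 still had a negative difference.

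**Figure D4:**
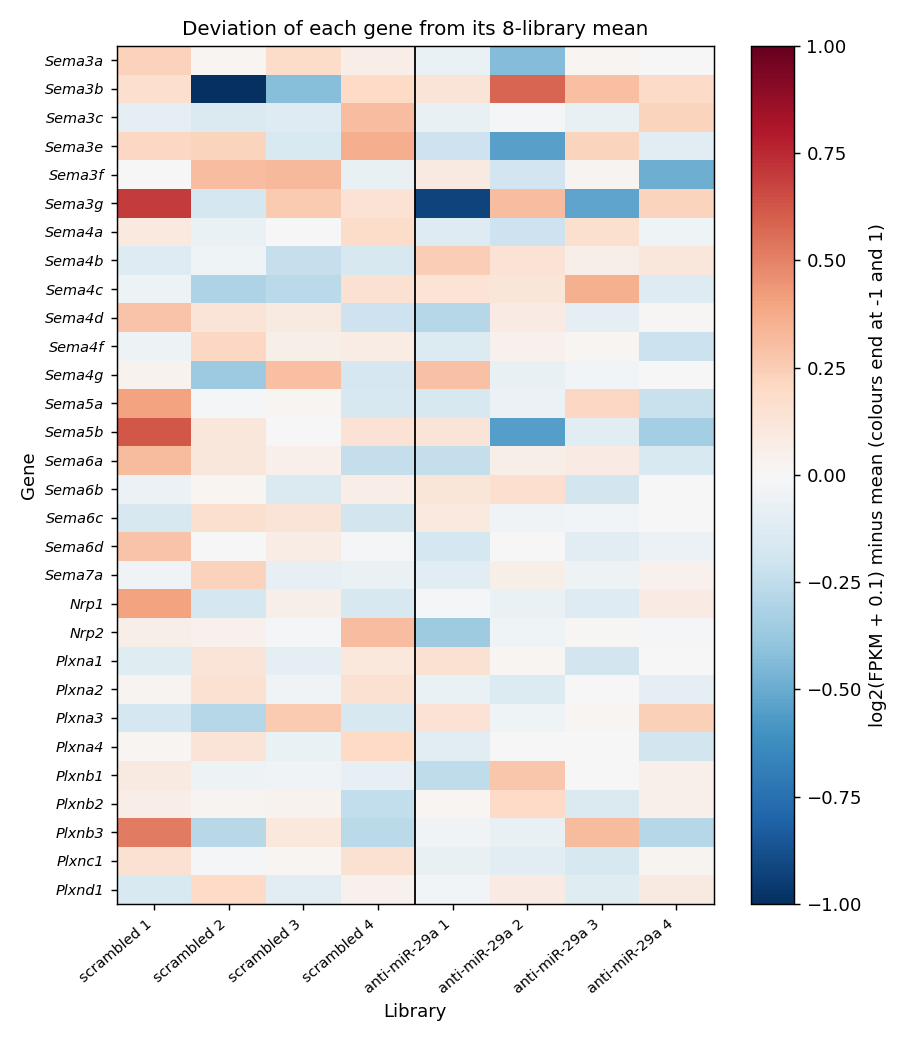
Deviation of each tested gene (rows, in family order) from its mean over the 8 libraries (columns, scrambled left of the black line), as log2(FPKM + 0.1), red above and blue below the mean. Scrambled replicate 1 is the red column for Sema5a, Sema5b, Sema6a, Sema6d, Nrp1 and Plxnb3, while the deepest colours belong to the scarce Sema3b and Sema3g.

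Other cell type markers were set beside the members that those cells are known to express. Endothelial markers, the context of Plxnd1, Nrp1 and Sema3g, summed to 70.8 to 96.1 FPKM in the scrambled group and 88.9 to 96.7 FPKM in the anti-miR-29a group, with 4 of 7 higher. Meningeal and perivascular fibroblast markers summed to 322 to 504 FPKM in the scrambled group and 469 to 715 FPKM in the anti-miR-29a group, with 6 of 7 tested markers higher, a median difference of 0.51 and Lum, the remaining listed one, at 0 in at least 1 library. Most of the fibroblast sum was Ptgds, at 307 to 477 FPKM in the scrambled and 449 to 686 FPKM in the anti-miR-29a group. Astrocyte markers summed to 828 to 1001 and 831 to 1191 FPKM, microglia and macrophage markers to 73.1 to 112 and 72.0 to 106 FPKM, mural cell markers to 24.7 to 34.3 and 20.0 to 31.5 FPKM, and oligodendrocyte precursor markers to 36.9 to 46.9 and 36.3 to 43.7 FPKM. At an unadjusted p under 0.05 (limma), 3 fibroblast markers were higher, Ptgds (0.61), Col1a1 (0.80) and Slc6a13 (0.85). The astrocyte markers Gfap (0.72) and Gja1 (0.26) were higher too, while 4 of the 7 astrocyte markers were lower, with a list median of -0.0016. Cd68 (0.40) of the microglia and macrophage list and Ly6c1 (0.28) of the endothelial list were also higher, and the mural marker Rgs5 (-0.42) was lower. Of all tested rows, 7.54% were higher and 3.18% lower at that limit. None of these markers passed after adjustment. The groups overlapped in each of these marker sums, and the part of these cell types in the members' values was not tested.

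Downstream of the receptors, the 32 listed signal transducers of semaphorins were read from the same fit. Of the 31 tested, 0 passed after adjustment by limma, while 4 were higher and 1 was lower at an unadjusted p under 0.05, with a median difference of -0.039 (-0.0086 with the length and GC trend removed). Over all tested rows 7.54% were higher and 3.18% lower at that limit, and 4.02% and 2.29% were higher and lower without overlap. In this list Dpysl4, Cfl1 and Fes were higher and Rock2 was lower without overlap, and the groups overlapped in the rest. Fes differed by 0.48 (limma, unadjusted p = 0.0113, adjusted p = 0.314). Rock2, a kinase that drives actomyosin contraction below RhoA, read 22.6, 23.1, 24.4 and 22.3 FPKM for scrambled replicates 1 to 4, then 18.5, 18.2, 20.4 and 17.6 FPKM for anti-miR-29a replicates 1 to 4. All its anti-miR-29a values lay below all scrambled ones (log2 difference -0.30 ± 0.0645; limma, adjusted p = 0.200). Dpysl4, a member of the collapsin response mediator family that relays Sema3a signals, read 14.7, 14.0, 17.6 and 15.1 FPKM for scrambled replicates 1 to 4, then 17.9, 19.4, 18.4 and 19.0 FPKM for anti-miR-29a replicates 1 to 4, again with no overlap (log2 difference 0.29 ± 0.0780; limma, adjusted p = 0.254). Cfl1, the actin-severing cofilin, read 790.2 ± 33.6 and 856 ± 8.74 FPKM, a log2 difference of 0.12 that turned to -0.039 under quantile normalization and to 0.022 with that trend removed (limma, adjusted p = 0.309).

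The co-receptors and the growth factors that share neuropilins gave no call either. Among 13 tested co-receptors the median difference was -0.057, and 1 was higher at an unadjusted p under 0.05, a share close to the 7.54% of all tested rows. That gene was Itgb1, the integrin beta chain through which Sema7a acts, with 10.7, 9.49, 7.80 and 8.37 FPKM for scrambled replicates 1 to 4, then 10.2, 12.6, 10.6 and 12.8 FPKM for anti-miR-29a replicates 1 to 4. Scrambled replicate 1 overlapped with the anti-miR-29a values of Itgb1 (log2 difference 0.35 ± 0.117; limma, adjusted p = 0.337). Trem2, a microglial receptor that binds in Plxna1 complexes, differed by 0.37 (0.24 without scrambled replicate 4) and Met, the partner of Plxnb1, by -0.41 (-0.22 with a pseudocount of 1 FPKM), neither with an unadjusted p under 0.05. Among 8 tested genes of the VEGF ligands and receptors the median was -0.041, and Vegfb, Vegfa and Flt1 differed by 0.12, -0.069 and -0.12. With that trend removed Vegfb was 0.017 and Vegfa -0.14, and Flt1 ranged from -0.25 to -0.0076 with each library left out.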

How the data were processed

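Libraries had been made from total RNA with a kit that does not mark strand, per the labels' protocols. The authors deposited FPKM values for 24883 gene rows in 8 libraries; CASAVA 1.8.2, Bowtie, Cuffnorm and build mm10 are named in the submitters' processing notes, with annotation, filters and scaling not given in the sources used here. FPKM are not counts, and whole reads could not be recovered for each gene.

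Rows with a mean of at least 0.5 FPKM were fitted across all genes as log2(FPKM + 0.1) with limma 3.58.1 (R 4.3.3), a single group term and trended variances. Two-sided p-values were adjusted over 13912 rows by Benjamini and Hochberg's method. Fold changes on this scale are understated for low genes. Exact two-sided permutation tests used all 70 relabellings. Members described in full are the 10 of smallest p plus Sema3a, Sema7a, Nrp1, Nrp2 and Plxna4. Up to 3 genes of smallest p are named per pathway list, and Fes was added for its lack of overlap. The members and lists were chosen with earlier results of these data known. GENCODE M21 (mm10) gave the coordinates, the transcript lengths and the 3' UTRs; 99.2% of tested rows had a length. The fit was tested on simulated data. Alternatives were other pseudocounts, filters, scalings, weights, robust estimation, the replicate number as a block, a length and GC trend, and each library left out.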

Additional observations from a re-analysis of the deposited data

Results flagged for a closer look

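Among 104 groups of 4 libraries examined for a single distant value, 5 were found, where chance gives about 1 in 20. Scrambled replicate 4 stood apart in 2 genes: Sema3c read 3.06 FPKM there against 2.21 to 2.29 in the other scrambled libraries, and Plxnb2 read 7.55 FPKM against 9.12 to 9.42. Sema7a was high in scrambled replicate 2 at 47.4 FPKM against 38.1 to 39.4. Nrp2 was low in anti-miR-29a replicate 1 at 2.08 FPKM against 2.61 to 2.71. The summed level of the semaphorins of classes 4 to 7 was 146 FPKM in anti-miR-29a replicate 2 against 139 to 139.7 in the rest of that group.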

How the results depend on the processing

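No member passed the threshold in any of the 20 alternatives, where the smallest adjusted p of a member was 0.287 (limma, sample weights). The sign of 20 of the 30 tested members was the same in all of them. The 2 rows past the threshold over the whole table became 1 without a filter, with a mean of at least 5 FPKM or with the length and GC trend removed, 10 with robust empirical Bayes, 0 with a transcript of at least 200 nt, and 1 to 4 with each library left out. With the replicate number as a block 0 rows passed, also with the trend removed (1476 and 1009 rows had an unadjusted p under 0.05, and 1505 with at least 200 nt). Same-numbered libraries correlated at -0.106 to 0.0143 and other pairs at -0.235 to 0.194. Pairing by number was thus not seen, but so few libraries cannot exclude it. The 2 members with an unadjusted p under 0.05 became 0 with a mean of at least 5 FPKM, 4 with quantile normalization or median centring, 1 with the block and the trend removed together, and 1 to 4 with each library left out; Sema4b was among them in all 8 fits that left out a library, and not in the block and trend fit. The median of the members ranged from -0.13 to -0.039 with each library left out, and that of the VEGF ligands and receptors from -0.12 to 0.078. Lower rows made up 29.7% of those with an unadjusted p under 0.05, and 52.8% with quantile normalization. Sites for miR-29 were found in 7 members with a 6-base match (22.6%, against 34.2% of the searched rows). Over any annotated 3' UTR a 7-base match was found in 2, Sema3a and Sema6a (6.45%, against 16.7%).

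With each library left out, members near 0 changed sign: Nrp1 (-0.14 to 0.058), Plxna1 (-0.066 to 0.050), Plxnb1 (-0.043 to 0.13), Plxnb2 (-0.013 to 0.12), Plxnb3 (-0.15 to 0.13), Plxnd1 (-0.034 to 0.082), Sema3c (-0.037 to 0.14), Sema4g (-0.0065 to 0.22), Sema6c (-0.033 to 0.084) and Sema7a (-0.059 to 0.047). Plxna1 was 0.036 once the trend was removed, with or without the block. Plxnd1 was -0.021 and -0.015, and Sema6c -0.0083 and -0.0042, with quantile normalization and median centring. Sema7a was 0.0039 with sample weights, and Cfl1 -0.039 with quantile normalization. The cause of these reversals was not tested. No read counts were used, so the counting error behind low values such as those of Sema3b and Sema3g is unknown.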

Other observations

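The netrin and slit system and the ephrins were read from the same fit for comparison. Netrins, slits and their receptors had a negative difference in 15 of 19 tested genes, where 43.4% of all tested rows did. Their median of -0.12 ranged from -0.17 to -0.092 with each library left out, and with a trend on length and GC content removed it was -0.030, when 52.2% of all rows were negative. None passed after adjustment by limma, and 2 were lower at an unadjusted p under 0.05, against 3.18% of all tested rows. These were Unc5b, a repulsive netrin receptor (3.17 ± 0.424 and 2.36 ± 0.199 FPKM), and Robo2, a slit receptor (11.8 ± 1.12 and 10.2 ± 0.707 FPKM), both named after their values were seen. Ephrins differed in the other direction in 5 of 7 tested genes, with a median of 0.059, and that median ranged from -0.034 to 0.16 with each library left out and was -0.035 with the trend removed. Whether these families differ from one another or from the semaphorins was not tested.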
